A study of Homo sapiens with 8 samples.

Results

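Long intergenic noncoding RNAs (lincRNAs) are long transcripts made outside protein-coding genes that are not known to be translated. Some act as scaffolds of nuclear bodies or bind proteins in the cytoplasm, some are the precursors from which small nucleolar RNAs or microRNAs are cut, and for many no function is known. LSD1 (gene KDM1A) is a histone demethylase and G9a (gene EHMT2) a histone methyltransferase, and both are known as regulators of chromatin at noncoding as well as coding genes.

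The 146 lincRNAs described here were those typed lincRNA in both deposited tables that reached 5 FPKM (fragments scaled to the length of the gene and to the mapped total of the library) in at least 1 of 8 libraries. They came from 2478 lincRNAs and 26360 genes listed in both tables, after 2 lincRNAs were left out by name. The members were chosen by these measured FPKM levels, so the counts and medians over the members below are descriptions. The background was the 9043 genes of any type that reached the same level, of which 8226 code for proteins. At the edge of the choice, AL512413.1 reached 5.0131 FPKM and CH17-340M24.3 reached 5.1802 FPKM, whereas AC139718.2 stopped at 4.9972 FPKM and AL022322.1 at 4.9966 FPKM.

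All libraries came from Kyse510, an established line of human esophageal squamous cell carcinoma, and each condition had 1 library. In the pharmacological arm, cells received vehicle (DMSO), 7 uM SP2509 (an LSD1 inhibitor), 7 uM UNC0642 (a G9a inhibitor) or the combination for 2 days, and no separate dose is given for the combination. In the genetic arm, cells stably carrying a doxycycline (Dox)-inducible shLSD1 or shG9a hairpin had been selected with puromycin for 14 days and were kept without Dox or given Dox for 2 days. Each treated library was set against its own control, which was vehicle for the inhibitors and the same line without Dox for the hairpins. The sources disagree on the hairpin control, since the study's text names cells with a nonsilencing hairpin and the labels name the line without Dox, and the labels were followed. No library of cells with a nonsilencing hairpin and Dox was analysed here, so Dox itself and the knockdown cannot be told apart. Without replicates there is no spread between samples, no p is given, and every interval is an exact (Clopper-Pearson) 95% interval on reads, which covers counting error only, since reads without molecular identifiers are not independent molecules.

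Between 15662035 and 17889466 reads stood behind each library, as recovered from the steps of the FPKM values, and a lincRNA had a median of 562.5 reads and at least 45 reads over the 8 libraries. KDM1A was at 26 FPKM in the shLSD1 line without Dox and at 6.29 FPKM with it, and EHMT2 was at 7.85 FPKM in the shG9a line without Dox and at 4.76 FPKM with it. All 6 squamous epithelial markers reached 1 FPKM, with summed levels of 146 to 904 FPKM, and none of the leukocyte markers did, with a summed level of at most 0.0771 FPKM. Fibroblast markers summed to 3.03 to 5.53 FPKM and endothelial markers to 3.56 to 14.5 FPKM. In such bulk RNA, fewer cells in a state and less of an RNA per cell cannot be told apart. The 2 tables used different annotation versions, and 8 of the 146 lincRNAs have another length in each, so levels were compared within a table.

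The lincRNAs were few and mostly low. They held between 0.203% (SP2509) and 0.373% (shG9a with Dox) of the reads of a library, and their median level ran from 1.85 FPKM (SP2509) to 3.83 FPKM (both) in the inhibitor table and from 4.05 FPKM (shG9a without Dox) to 5.22 FPKM (shLSD1 with Dox) in the hairpin table. Only 20 of the 146 reached 5 FPKM in every library, and 45 did so in a single library. A total of 64 reached it only in treated libraries, 15 of them only with SP2509+UNC0642. These counts follow from the rule that chose the members, and nothing is read from them about the treatments. Likewise, a lincRNA that reached 5 FPKM in a single treated library became a member through its high level there. In vehicle the median was 3.7 FPKM for the lincRNAs and 9.51 FPKM for the background genes. Differences below between shares of lincRNAs and of all genes therefore cannot be separated from the rule.

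NORAD, a cytoplasmic RNA that binds PUMILIO proteins, had the highest mean level. It was at 125 FPKM in vehicle, 38.0 with SP2509, 129 with UNC0642 and 157 with SP2509+UNC0642. In the shLSD1 line it was at 85.9 FPKM without and 90.1 with Dox, and in the shG9a line at 87.9 without and 111 with Dox. SP2509 was thus the condition in which NORAD stood apart, 3.29-fold lower than vehicle (3.16 to 3.41), and its ratio of both inhibitors to vehicle was 1.26 (1.23 to 1.29), under the fold of 1.3 used below.

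The next places were held by AF064858.2, SNHG8, PVT1, AF064858.3, AC004704.1, MALAT1, NEAT1, LINC02310 and LINC01503. MALAT1 and NEAT1 are nuclear RNAs, of nuclear speckles and paraspeckles respectively, and lie 52221 bases apart on chromosome 11. NEAT1 was at 31.9 FPKM in vehicle, 16.4 with SP2509, 40.8 with UNC0642 and 6.27 with SP2509+UNC0642. MALAT1 was at 18.8, 27.1, 30.2 and 19.3 FPKM in the same libraries. The neighbours therefore differed in their order, since NEAT1 was lowest with both inhibitors, where MALAT1 was near its vehicle level. In the shG9a line MALAT1 was at 31.5 FPKM without Dox and 77.8 with Dox, 2.47-fold higher (2.39 to 2.56), and NEAT1 was at 33.0 and 45.1 FPKM. In the shLSD1 line MALAT1 was at 29.6 and 37.0 FPKM and NEAT1 at 39.1 and 37.1. AC004704.1, on chromosome 4, was at 19.9, 70.3, 41.7 and 49.7 FPKM in vehicle, SP2509, UNC0642 and both, and at 34.3 and 30.3 FPKM and at 28.2 and 11.8 FPKM without and with Dox in the shLSD1 and shG9a lines. It was highest with SP2509, as was AC139718.1 17186 bases away, at 13.6, 17.4, 9.32 and 5.73 FPKM, but with both inhibitors AC004704.1 was above and AC139718.1 below vehicle. LINC01503, a lincRNA of squamous carcinomas, was at 23.4, 32.3, 26.4 and 14.2 FPKM in vehicle, SP2509, UNC0642 and both, and at 37.9 and 47.5 FPKM and at 33.5 and 25.2 FPKM without and with Dox in the shLSD1 and shG9a lines.

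**Figure D1:**
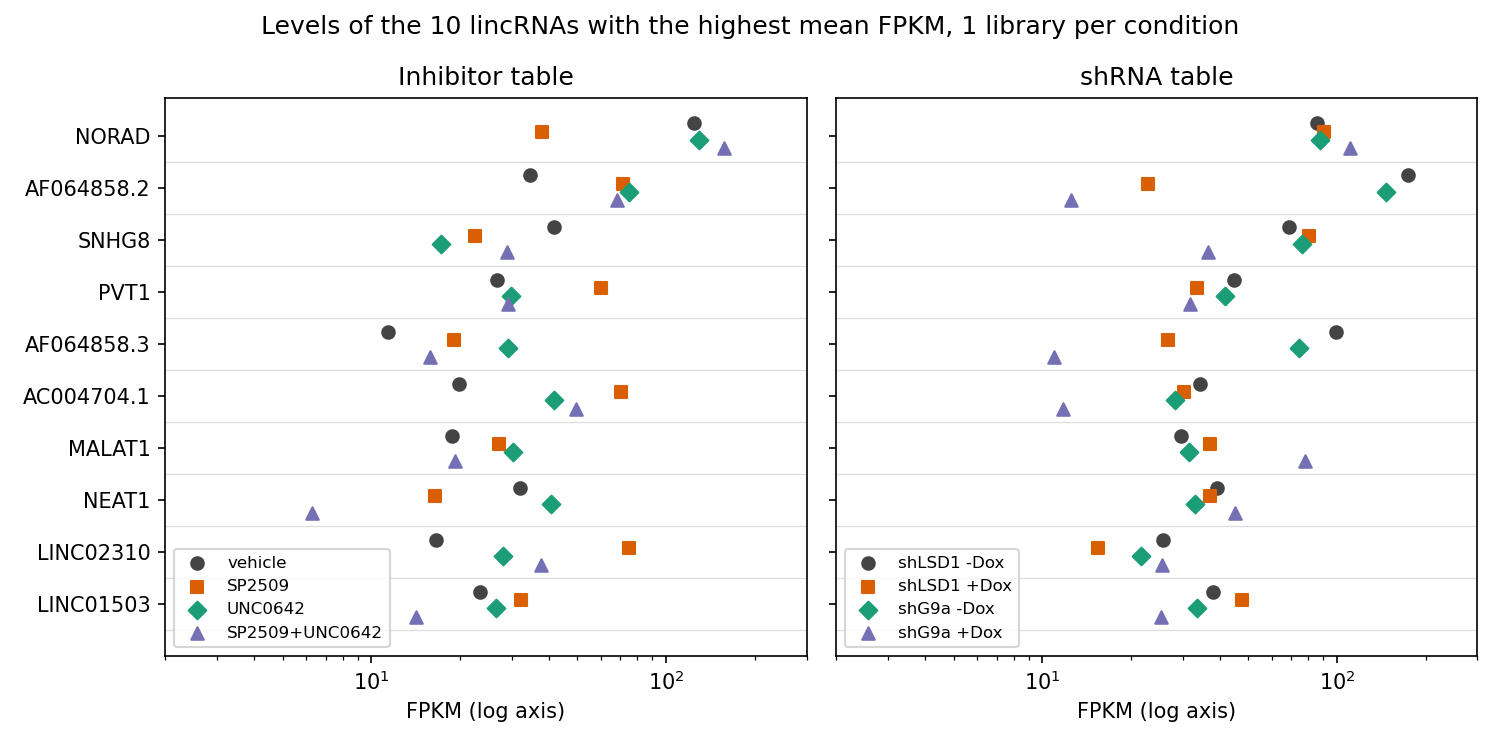
Levels in FPKM (log axis) of the 10 lincRNAs with the highest mean level, in the 4 inhibitor libraries (left) and the 4 hairpin libraries (right), with 1 point per library and no error bars because each condition has 1 library. NORAD lies at 38.0 FPKM with SP2509 against 125 in vehicle, and AF064858.2 drops from 174 to 22.9 FPKM and from 147 to 12.5 FPKM with Dox in the 2 lines.

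The genes sit in varied places. Of 136 lincRNAs found in GENCODE release 44, 28 have 1 exon in every transcript and 108 are spliced. The 146 are spread over 22 chromosomes, with 12 on chromosome 5 and 11 on chromosome 1, and their median length is 881 bases in the inhibitor table (238 to 22767 bases). A total of 125 overlap no protein-coding gene and 21 do, 17 of them on the opposite strand, where counting without regard to strand would not separate the RNAs. The counting is not stated to have used strand. The median distance to the nearest coding start was 33838 bases. For 22 lincRNAs that nearest start lies within 1000 bases on the opposite strand, and these are called divergent below. Whether the genes of such a pair point apart or overlap was not checked, so the class can hold overlapping pairs. In all, 16 stand in 7 groups of 2 or 3 lincRNAs at most 100000 bases apart.

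The promoter windows of 7 lincRNAs are shown because large changes below concern these genes. They are the group on chromosome 21 and MIR210HG and LINC01293, which were lower with Dox in both lines, MIR22HG, and NORAD, the most abundant. MIR22HG belongs to the divergent class as defined above, and also overlaps a coding gene on the opposite strand. Each window runs from 250 bases before to 50 bases after the deposited gene start, was read from GRCh38 and is written 5' to 3' on the gene's strand. Capitals mark matches to the motifs named below. The windows lie at chr21:39006104-39006403, chr21:39029079-39029378 and chr21:39011280-39011579 (minus strand, in the order printed), chr11:568408-568707 (minus), chr2:74940008-74940307 (plus), chr17:1717125-1717424 (minus) and chr20:36050911-36051210 (minus).
AF064858.1: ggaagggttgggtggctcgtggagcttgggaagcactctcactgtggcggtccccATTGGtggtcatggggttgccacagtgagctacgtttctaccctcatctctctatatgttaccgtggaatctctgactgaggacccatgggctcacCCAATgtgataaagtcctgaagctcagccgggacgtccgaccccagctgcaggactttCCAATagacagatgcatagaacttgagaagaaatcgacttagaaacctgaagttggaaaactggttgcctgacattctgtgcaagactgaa
AF064858.2: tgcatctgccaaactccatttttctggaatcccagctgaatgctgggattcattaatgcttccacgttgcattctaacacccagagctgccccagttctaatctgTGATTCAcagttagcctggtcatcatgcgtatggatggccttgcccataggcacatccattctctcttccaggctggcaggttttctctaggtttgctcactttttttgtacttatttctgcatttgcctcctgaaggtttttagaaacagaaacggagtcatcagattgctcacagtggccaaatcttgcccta
AF064858.3: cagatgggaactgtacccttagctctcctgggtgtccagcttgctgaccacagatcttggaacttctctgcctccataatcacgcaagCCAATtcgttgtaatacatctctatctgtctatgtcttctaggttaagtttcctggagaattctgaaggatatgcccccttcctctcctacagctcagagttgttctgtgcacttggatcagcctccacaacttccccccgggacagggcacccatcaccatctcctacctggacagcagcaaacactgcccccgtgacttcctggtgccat
MIR210HG: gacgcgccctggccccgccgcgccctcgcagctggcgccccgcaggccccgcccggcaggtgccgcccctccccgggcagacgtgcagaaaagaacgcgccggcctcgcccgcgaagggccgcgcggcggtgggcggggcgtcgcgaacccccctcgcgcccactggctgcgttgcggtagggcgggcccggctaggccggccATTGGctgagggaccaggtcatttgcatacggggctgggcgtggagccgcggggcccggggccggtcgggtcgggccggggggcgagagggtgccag
LINC01293: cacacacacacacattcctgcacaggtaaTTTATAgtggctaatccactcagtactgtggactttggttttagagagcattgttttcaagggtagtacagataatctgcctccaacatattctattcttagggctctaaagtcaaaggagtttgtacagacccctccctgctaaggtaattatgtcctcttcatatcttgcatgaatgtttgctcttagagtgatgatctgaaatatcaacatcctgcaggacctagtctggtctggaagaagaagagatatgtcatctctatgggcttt
MIR22HG: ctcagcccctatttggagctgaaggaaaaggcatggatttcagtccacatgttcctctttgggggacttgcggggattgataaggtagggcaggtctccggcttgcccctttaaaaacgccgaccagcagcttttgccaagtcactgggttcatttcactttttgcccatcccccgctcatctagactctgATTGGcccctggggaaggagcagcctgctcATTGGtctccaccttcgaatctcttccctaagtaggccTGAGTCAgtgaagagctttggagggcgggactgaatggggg
NORAD: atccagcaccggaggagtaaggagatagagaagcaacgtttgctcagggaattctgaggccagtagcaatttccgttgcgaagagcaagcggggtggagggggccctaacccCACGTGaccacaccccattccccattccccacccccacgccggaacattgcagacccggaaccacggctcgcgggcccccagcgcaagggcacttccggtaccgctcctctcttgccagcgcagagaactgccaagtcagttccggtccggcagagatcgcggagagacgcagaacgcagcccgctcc

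A set of 8 motifs was searched in such windows on both strands, and their share was set beside that in the windows of 9027 of the 9043 genes. The AP-1 motif TGANTCA, the site of FOS and JUN dimers, was in 13.7% of lincRNA windows (20 of 146) and in 5.48% of all windows. It is printed in capitals in AF064858.2 and MIR22HG. The TATA motif TATAAA was in 11.6% (17) against 7.84%, the CCAAT motif CCAAT in 37.7% (55) against 35.7%, and the E-box CACGTG in 9.59% (14) against 9.18%. The cyclic AMP response element TGACGTCA was in 2 windows (1.37% against 2.82%) and the amino acid response element TGATGNAAT in 3 (2.05% against 0.598%). Neither the ER stress element nor the heat shock element was in any lincRNA window, against 0.0665% and 0.266% of all windows. The ER stress element holds the CCAAT motif within it. The lincRNA windows were poorer in G and C, with a median of 51.7% against 61.7% for all genes, and from 41.0% in LINC01293 to 80.0% in MIR210HG among those printed. A match is a description of the letters and not evidence of binding.

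The first comparison asked which lincRNAs differed between SP2509 and vehicle. With SP2509, 79 of 146 lincRNAs (54.1%) were lower by a fold of at least 1.3 on FPKM + 1, where 37.3% of all genes were, and 38 (26%) were higher, where 20.2% of all genes were. The interval on the reads left out a ratio of 1 for 74 of the 79 and 31 of the 38. By a fold of at least 2, 45 were lower and 17 higher, with 12.2% and 7.27% of all genes. The median log2 fold change was -0.518 over the lincRNAs and -0.18 over all genes. The median gene at 5 FPKM or more in both libraries was itself shifted by -0.102 on the log2 scale, and after that shift was taken off 74 lincRNAs were lower and 40 higher, where 32.0% and 24% of all genes were.

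MIR22HG, the host of miR-22, and NORAD were among those lower with SP2509. MIR22HG was at 4.77 FPKM (223 reads) in vehicle and 0.188 FPKM (10 reads) with SP2509, 25.4-fold lower (13.5 to 53.6). With UNC0642 it was at 3.2 FPKM and with both inhibitors at 12.5 FPKM, 2.63-fold above vehicle (2.25 to 3.08). A single agent and the combination therefore lay on opposite sides of vehicle. LINC01843, near the start of JADE2, was at 13.0 FPKM in vehicle, 1.62 with SP2509, 7.27 with UNC0642 and 0.856 with both, 7.99-fold and 15.2-fold lower with SP2509 and with both (5.5 to 12 and 9.13 to 27). AC009093.4, which lies near duplicated NPIP genes of chromosome 16 where reads can be shared between copies, was at 6.83 FPKM (60 reads) in vehicle and 0.1 FPKM (1 read) with SP2509. Its ratio of vehicle to SP2509 was 68.2 (11.8 to 2740). AL390719.2 was at 3.75 FPKM (58 reads) and 0.0569 FPKM (1 read).

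Higher with SP2509 were AC117402.1, HIF1A-AS2, AL136115.2 and LINC02310. AC117402.1 was at 1.64 FPKM in vehicle and 16.2 with SP2509, 9.88-fold higher (6.98 to 14.4), and at 1.11 with UNC0642 and 1.26 with both inhibitors. In the 4 hairpin libraries it lay between 0.665 and 1.19 FPKM. It became a member only through the library given SP2509 alone, so that it stood out there follows from the rule. LINC02310 was at 16.6, 75.2, 28.0 and 37.8 FPKM in vehicle, SP2509, UNC0642 and both, 4.52-fold higher with SP2509 (3.79 to 5.43), which made it the most abundant lincRNA of that library. HIF1A-AS2, transcribed opposite to HIF1A, was at 2.87, 17.4, 9.12 and 11.3 FPKM. HIF1A itself, which encodes the oxygen-regulated subunit of a hypoxia factor, was at 123, 97.8, 128 and 21.4 FPKM in the same order, so the overlapping coding gene was not higher by 1.3-fold where HIF1A-AS2 was. AL136115.2 was at 0.544 FPKM (5 reads) and 6.22 FPKM (65 reads), and overlaps PTP4A2 on the same strand, which was at 51.2 and 29.2 FPKM.

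Among the lincRNAs, divergent and single-exon genes were lower with SP2509 more often than the rest. In numbers, 18 of the 22 divergent lincRNAs (81.8%) were lower and 3 higher, with a median log2 fold change of -1.19, against 61 of the other 124 (49.2%). Among single-exon lincRNAs 21 of 28 (75%) were lower, against 55 of 108 spliced ones (50.9%). Of the 41 lincRNAs whose promoter window was at or above the median GC of all genes, 28 (68.3%) were lower, against 51 of 105 with a lower GC (48.6%). In other comparisons the order differed, as 17.9% of single-exon and 37.0% of spliced lincRNAs were lower with UNC0642, and 9.09% of divergent and 29.0% of other lincRNAs were lower in the shLSD1 line with Dox. The same classes were not counted over all genes. These subsets overlap, and their parts were not separated.

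The second comparison concerned UNC0642. With it, 46 lincRNAs (31.5%) were higher and 47 (32.2%) lower by a fold of at least 1.3, where 18.0% and 14.8% of all genes were. Counting intervals left out 1 for 40 and 36 of these. By a fold of at least 2, 24 were higher and 13 lower, against 4.38% and 2.49% of all genes. The median log2 fold change was -0.053 over the lincRNAs and 0.002 over all genes, so the lincRNAs were spread to both sides.

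LINC01559, on chromosome 12, had the largest difference on FPKM + 1. It was at 0.775 FPKM (48 reads) in vehicle, 3.59 with SP2509, 17.6 with UNC0642 and 45.7 (3051 reads) with both inhibitors. The ratios to vehicle were 4.64 (3.39 to 6.45), 22.8 (17.1 to 31.0) and 59.0 (44.4 to 80.2). In the hairpin libraries LINC01559 lay between 3.07 and 4.74 FPKM. With Dox it was 1.52-fold lower (1.27 to 1.82) in the shG9a line and at 4.37 and 4.74 FPKM in the shLSD1 line.

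Other lincRNAs that were higher with UNC0642 started from few reads. AC111149.2 was at 0.818 FPKM (10 reads) in vehicle and 10.4 FPKM (146 reads) with UNC0642, AP005233.2 at 0.343 (2 reads) and 7.21 (48 reads), and AC079466.1 at 0.244 (17 reads) and 5.86 (467 reads). AC079466.1 was thus 24.1-fold higher (14.9 to 41.6). It is the lincRNA that was higher by at least 2-fold both with UNC0642 and in the shG9a line with Dox, where it was at 0.136 FPKM (10 reads) without and 7.79 FPKM (601 reads) with Dox, 57.4-fold higher (31.0 to 120.0). In the remaining inhibitor libraries it was at 0.0378 FPKM with SP2509 and 0.945 with both, and in the shLSD1 line at 0.19 without and 0.693 with Dox. It thus became a member only through UNC0642 and the shG9a line with Dox, where it was high.

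Lower with UNC0642 were AC034213.1, LINC02518, LINC02100 and AC009093.4. AC034213.1, on chromosome 5, was at 3.17 FPKM (40 reads) in vehicle, 1.05 with SP2509, 0.208 (3 reads) with UNC0642 and 1.18 with both. Its ratio of vehicle to UNC0642 was 15.2 (4.85 to 77.0). LINC02518 was at 4.63, 6.66, 0.645 and 0.0976 FPKM in the 4 inhibitor libraries, and LINC02541, which like LINC02518 has MARCKS on chromosome 6 as its nearest coding start, was at 16.8, 15.2, 10.8 and 5.95. Both were lowest with the combination. LINC02100, the shortest lincRNA with 238 bases, rested on 18 reads in vehicle and 2 with UNC0642.

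The third comparison was of both inhibitors together against the same vehicle library, which the 3 inhibitor comparisons share. Here 59 lincRNAs (40.4%) were higher and 61 (41.8%) lower by 1.3-fold, where 30.1% and 31.5% of all genes were. By 2-fold, 37 were higher and 21 lower, against 11.5% and 9.59% of all genes. Among those higher, AC090192.2 was at 1.15 FPKM in vehicle, 0.406 with SP2509, 10.2 with UNC0642 and 39.1 with both, 33.9-fold above vehicle (18.2 to 71.2). AL451060.1 had no read in vehicle and was at 0.11, 0.766 and 16.6 FPKM (143 reads) with SP2509, UNC0642 and both, and LINC02178 had no read in vehicle and was at 0.529, 1.58 and 11.2 FPKM (80 reads). With 3 reads put in for vehicle these were 44.2-fold and 24.7-fold higher with both inhibitors, and the intervals on the reads began at 35.5 and 19.7. Both were at or below 0.427 FPKM in every hairpin library. They became members only through the library given both inhibitors, so that they stood out there follows from the rule.

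LINC01293, near POLE4, was at 0.958, 3.64, 9.4 and 17.3 FPKM in vehicle, SP2509, UNC0642 and both, and LINC01133 at 2.65, 6.68, 1.68 and 17.2 FPKM. LINC01133 is known from squamous epithelia and carcinomas. It was therefore highest with the combination and below vehicle with UNC0642 alone. Lower with the combination were LINC01843 and LINC02518 (above), NEAT1, which was 5.09-fold lower (4.87 to 5.32) on 11376 and 2408 reads, and LINC01315, at 5.34 FPKM in vehicle and 0.701 with both.

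**Figure D2:**
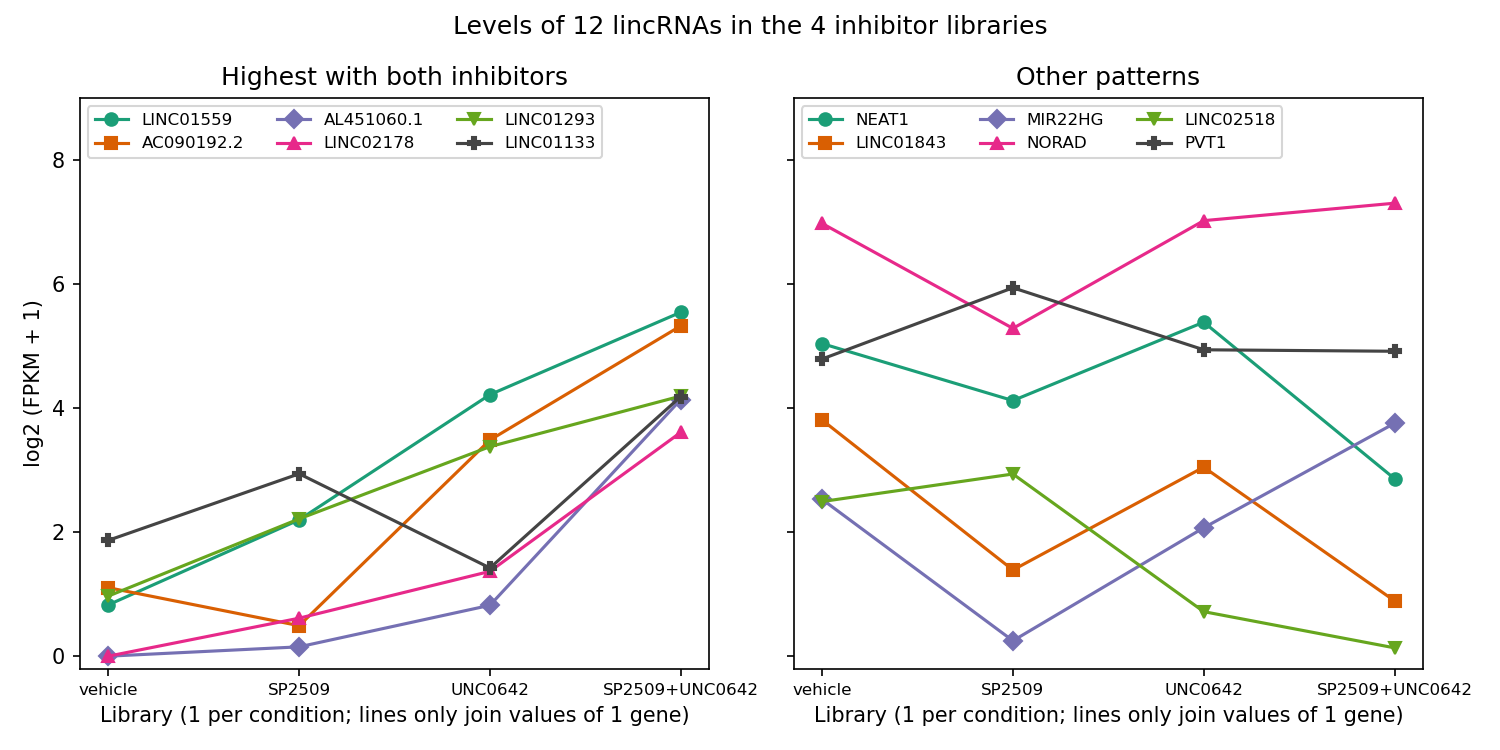
Levels of 12 lincRNAs as log2 (FPKM + 1) in the 4 inhibitor libraries, 1 library per condition, with lines that only join the values of a gene. In the left panel all 6 are highest with SP2509+UNC0642, as LINC01559 is at 45.7 FPKM. In the right panel NEAT1 and LINC01843 are lowest with both inhibitors and MIR22HG and NORAD are lowest with SP2509 alone.

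The AP-1 motif was not evenly spread over the lincRNAs that differed, and neither were the E-box and TATA motifs. With UNC0642, 13 of the 20 lincRNAs with the motif (65.0%) were higher and 3 lower, and 33 of the 126 without it (26.2%) were higher and 44 lower. Among all genes the shares higher were 28.7% with and 17.4% without the motif. With both inhibitors, 14 of 20 (70.0%) with and 45 of 126 (35.7%) without the motif were higher, against 41.0% and 29.5% of all genes. In the shG9a line with Dox the order turned, with 10 of 20 lower against 29 of 126 (23.0%), and 31.7% against 18.5% of all genes. In the shLSD1 line 7 of 20 with the motif (35.0%) were lower and 4 higher, and 31 of 126 without it (24.6%) were lower and 30 higher, against 18.0% and 11.9% of all genes lower. With SP2509, 8 of 20 were higher and 8 lower, and 30 of 126 without the motif (23.8%) were higher and 71 lower, against 31.7% and 19.5% of all genes higher. With both inhibitors, 9 of 14 lincRNAs with the E-box (64.3%) and 37.9% without it were higher, against 29.2% and 29.5% of all genes. For the TATA motif, 11 of 17 (64.7%) with and 38.8% without it were lower, against 30.5% and 31.5% of all genes. For the CCAAT motif the shares higher were 41.8% and 39.6%. Subsets this small can thus differ where all genes do not.

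The next comparisons asked what differed with Dox in each hairpin line. In the shLSD1 line 34 lincRNAs (23.3%) were higher with Dox and 38 (26%) lower by 1.3-fold, where 24.1% and 12.2% of all genes were. In the shG9a line 52 (35.6%) were higher and 39 (26.7%) lower, where 30.8% and 19.2% of all genes were. By 2-fold, 12 were higher and 9 lower in the shLSD1 line (2.79% and 3.24% of all genes) and 13 and 16 in the shG9a line (4.31% and 6.97%). The median gene shifted upward with Dox by 0.12 (shLSD1) and 0.153 (shG9a) on the log2 scale. With the shift taken off, 29 lincRNAs were higher and 42 lower in the shLSD1 line, where 15.8% and 17.1% of all genes were. In the shG9a line the split turned to 40 higher and 52 lower, and that of all genes turned likewise, to 20.3% and 24.9%.

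**Figure D3:**
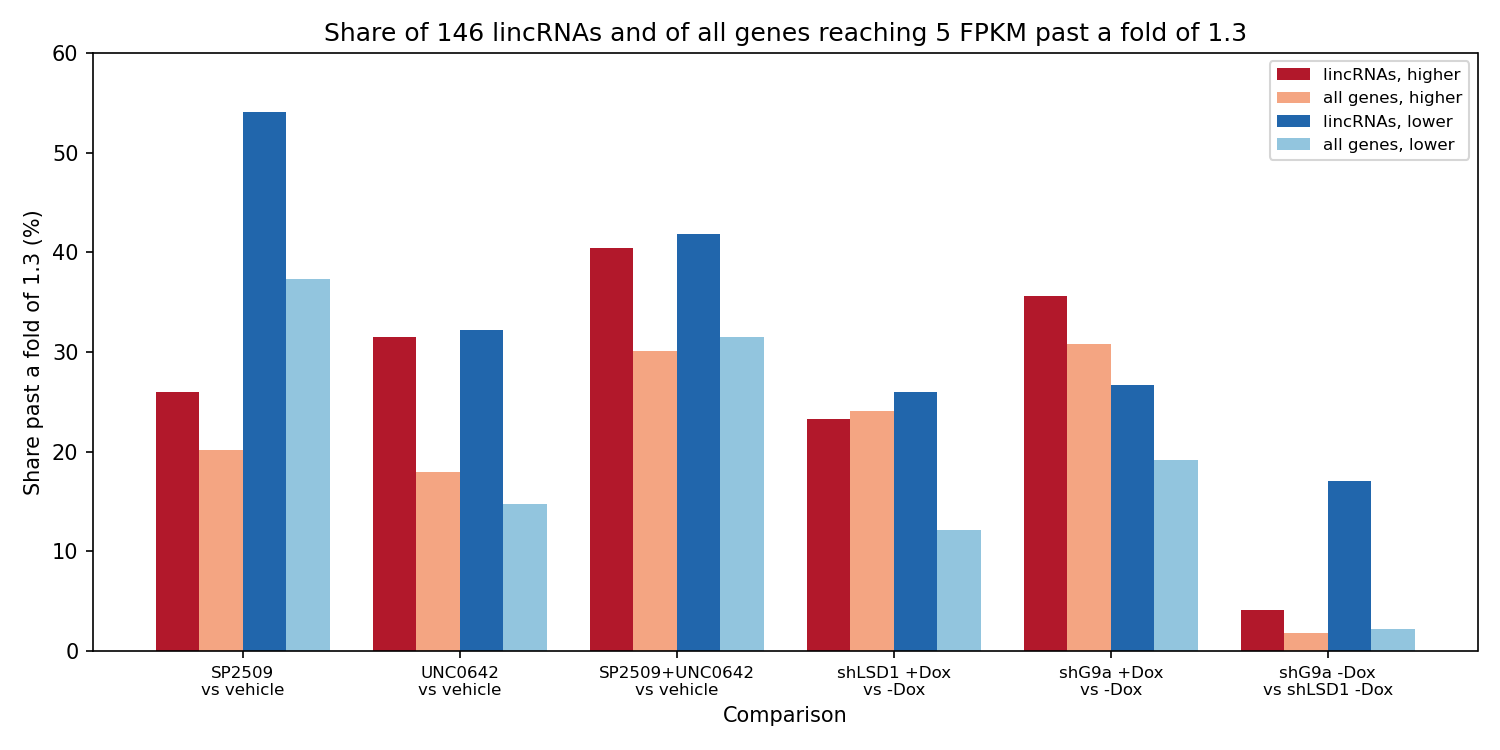
Share in percent of the 146 lincRNAs (dark bars) and of all 9043 genes reaching 5 FPKM (light bars) that differed by a fold of at least 1.3 on FPKM + 1, higher (red) or lower (blue), in each comparison, with 1 library on each side. The share of lincRNAs lower with SP2509 is 54.1% against 37.3% of all genes.

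A group of 3 lincRNAs on the minus strand of chromosome 21 was lower with Dox in both lines. AF064858.1 (chr21:38988707-39006153), AF064858.3 (chr21:39006648-39011329) and AF064858.2 (chr21:39028536-39029128) are separated by 494 and 17206 bases, and the nearest coding start, that of PSMG1, is 154723 to 177698 bases away. Whether they are parts of 1 transcript was not tested. AF064858.2 was at 174 FPKM without and 22.9 with Dox in the shLSD1 line, 7.6-fold lower (6.26 to 9.3), and at 147 and 12.5 FPKM in the shG9a line, 11.8-fold lower (9.1 to 15.5). It was the most abundant lincRNA in both lines without Dox. AF064858.3 was at 99.0 and 26.8 FPKM and at 74.6 and 11 FPKM, and AF064858.1 at 33.6 and 8.9 FPKM and at 22.6 and 5.23 FPKM, without and with Dox in the shLSD1 and shG9a lines. The decreases of the 3 lay between 3.69-fold and 11.8-fold on FPKM.

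With the inhibitors the same group differed the other way or little. AF064858.2 was at 34.5 FPKM in vehicle, 71.4 with SP2509, 74.7 with UNC0642 and 68.0 with both. AF064858.3 was at 11.4, 19.1, 29.2 and 15.8 FPKM and AF064858.1 at 4.93, 6.84, 9.86 and 4.53 FPKM. UNC0642 was the condition with the highest level of all 3, at 2.16-fold, 2.56-fold and 2.0-fold vehicle for AF064858.2, AF064858.3 and AF064858.1.

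Across the lines, 25 lincRNAs were higher in both with Dox and 21 lower in both by 1.3-fold, and 5 differed in opposite directions. Of all genes 14.0% were higher and 8.15% lower in both. A further 1.94% were higher in the shLSD1 line and lower in the shG9a line, and 0.807% the reverse. The 25 were 73.5% of those higher in the shLSD1 line and 48.1% of those higher in the shG9a line, and the 21 were 55.3% and 53.8% of those lower. The 2 comparisons share no library, and both share the addition of Dox. Over the 146 lincRNAs the changes had a Pearson r of 0.64, and over all genes 0.58, given as a description of genes in 4 libraries. By 2-fold all 9 lincRNAs lower in the shLSD1 line were also lower in the shG9a line, where 16 were. Of all genes 2.32% were lower in both, out of 3.24% lower in the shLSD1 line. With the median shift described above taken off, 10 of 14 lincRNAs (71.4%) were. The 9 were the 3 of chromosome 21, LINC01293, HIF1A-AS2, AC034213.1, MIR210HG, AC015912.3 and LINC02570.

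MIR210HG, the host of the hypoxia-induced miR-210, was at 9.03 FPKM without and 2.66 with Dox in the shLSD1 line and at 6.28 and 1.69 FPKM in the shG9a line, 3.4-fold (2.73 to 4.25) and 3.71-fold (2.82 to 4.93) lower. HIF1A-AS2 was at 4.33 (41 reads) and 0.429 FPKM (4 reads) and at 2.38 (21 reads) and 0 FPKM. HIF1A was at 46.6 and 98.6 FPKM and at 49.8 and 66.9 FPKM, higher where its opposite-strand partner was lower. LINC01293 was at 5.52 and 0.857 FPKM and at 3.63 and 0.182 FPKM (4 reads). AC034213.1 was at 10.1 and 2.62 FPKM and at 11.8 FPKM (157 reads) and no read, at least 54.8-fold lower against a floor of 3 reads. LINC02570, near DDR1 on chromosome 6, was at 23.9 and 11.2 FPKM and at 23.3 and 9.47 FPKM.

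Only 3 lincRNAs were at least 2-fold higher with Dox in both lines, where 0.951% of all genes were. Z83851.1, which overlaps TCF20 on the opposite strand, was at 2.07 and 7.13 FPKM in the shLSD1 line and at 1.44 and 5.19 FPKM in the shG9a line. AC099796.1 was at 1.9 and 6.1 FPKM and at 2.39 and 11.1 FPKM. AP001628.1 was at 0.988 (5 reads) and 3.61 FPKM (18 reads) and at 0.636 (3 reads) and 5.27 FPKM (26 reads).

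Several increases were much larger in a single line, though the difference between lines has no test here. In the shLSD1 line, LINC00342 was at 3.92 FPKM without and 19.7 with Dox, 5.04-fold higher (4.3 to 5.95), and in the shG9a line at 3.58 and 7.94 FPKM. It lies near the duplicated ANKRD36 genes of chromosome 2, where copies can share reads. LINC01843 was at 8.85 and 29.0 FPKM in the shLSD1 line and at 10.5 and 9.34 FPKM in the shG9a line, AL512274.1 at 0.834 and 5.97 and at 1.01 and 1.79, and LINC02331 at 0.842 and 4.46 and at 1.71 and 0.959. In the shG9a line, AL645608.1 (later named LINC02593) was at 0.568 FPKM (39 reads) without and 11.1 FPKM (800 reads) with Dox, 19.6-fold higher (14.2 to 27.8). In the shLSD1 line it was at 0.597 and 1.32 FPKM. AC084018.1, which overlaps RHOF on the opposite strand, was at 1.06 and 9.09 FPKM in the shG9a line, where RHOF was at 0.479 and 0.383 FPKM.

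**Figure D4:**
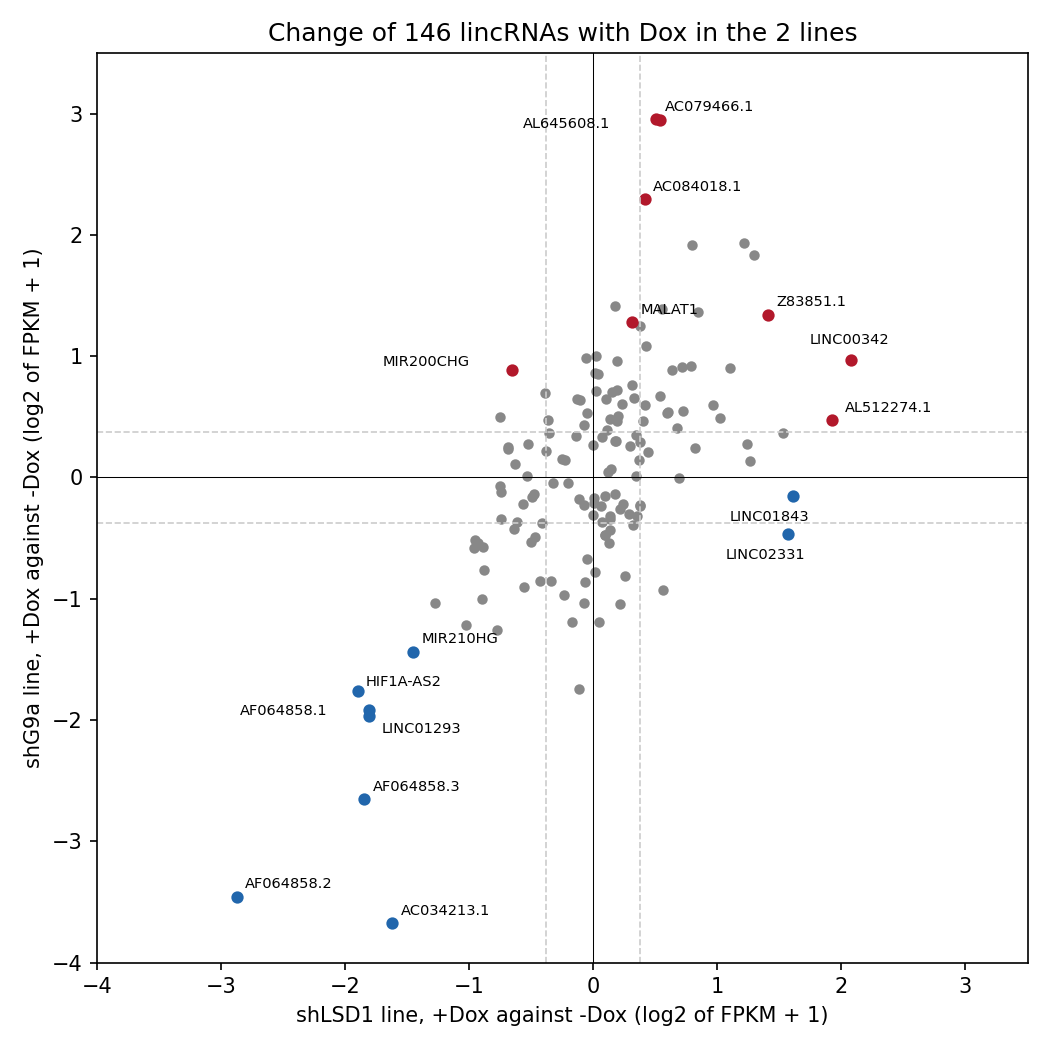
Log2 fold change of FPKM + 1 with Dox for each of the 146 lincRNAs in the shLSD1 line (horizontal) and the shG9a line (vertical), with dashed lines at a fold of 1.3 and 1 library on each side of each comparison. Coloured points are named in the text, red above and blue below 0 in the shG9a line. The 3 AF064858 lincRNAs lie far to the lower left, and AC079466.1 and AL645608.1 at the top, at 0.51 and 0.54 on the horizontal axis.

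The lines without Dox gave a measure of how far 2 libraries with no induced hairpin differ. Between them, 6 lincRNAs (4.11%) were higher and 25 (17.1%) lower in the shG9a line by 1.3-fold, where 1.81% and 2.19% of all genes were, and by 2-fold none was higher and 1 was lower, AP005233.2 on 15 and 3 reads. By a fold of at least 2, 0.276% of all genes differed in each direction. The interval left out 1 for 15 of the 25. Among lincRNAs at least 2-fold lower with Dox in both lines, AF064858.1 was 1.49-fold lower (1.33 to 1.66) and MIR210HG 1.44-fold lower (1.22 to 1.7) in the shG9a line. HIF1A-AS2 was 1.82-fold (1.05 to 3.24), LINC01293 1.52-fold (1.13 to 2.05), AC015912.3 1.39-fold (0.945 to 2.05) and AF064858.3 1.33-fold (1.2 to 1.47) lower. A fold of 1.3 alone was thus reached by lincRNAs between uninduced lines more often than by genes in general. AF064858.2, AC034213.1 and LINC02570, with ratios of 0.844, 1.16 and 0.975, were under that fold.

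Next, the hairpin and the inhibitor of the same enzyme were set side by side, which share no library. For LSD1, only 2 lincRNAs (LINC01133 and LINC02331) were higher in both the shLSD1 line with Dox and SP2509, and 13 were lower in both. A further 26 were higher with Dox and lower with SP2509 and 17 the reverse. Of all genes 2.74% were higher in both, 2% lower in both, 13.9% higher with Dox and lower with SP2509 and 6.8% the reverse, so opposite values were the more frequent ones among all genes too. The 13 were 34.2% of those lower with Dox and 16.5% of those lower with SP2509. By 2-fold the shared ones were AC015912.3 and AC034213.1, both lower, where 0.177% of all genes were higher and 0.199% lower in both. Pearson's r was -0.39 over the lincRNAs and -0.4 over all genes. LINC00342 is an example of opposite values, at 3.92 and 19.7 FPKM with Dox above and at 2.54 in vehicle and 0.579 with SP2509.

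For G9a, 12 lincRNAs were higher and 12 lower in both the shG9a line with Dox and UNC0642, 16 were higher with Dox and lower with UNC0642, and 17 were the reverse. Of all genes 4.88% were higher in both, 4.28% lower in both, 3.33% higher with Dox and lower with UNC0642, and 6.98% the reverse. The 12 higher were 23.1% of those higher with Dox and 26.1% of those higher with UNC0642, and the 12 lower 30.8% and 25.5%. By the smaller of the 2 changes, AC079466.1, MALAT1, FP236383.3 and LINC01269 led those higher, and AC034213.1, AC009093.4, SNHG8 and AC015912.3 those lower. Only AC079466.1 was higher by 2-fold in both, and these 4 were lower by 2-fold in both, where 0.299% and 0.874% of all genes were. Pearson's r was -0.1 over the lincRNAs and -0.12 over all genes. AC015912.3, divergent from TRIM25 at a distance of 148 bases, was at 5.14, 1.29, 1.93 and 18.6 FPKM in vehicle, SP2509, UNC0642 and both, and at 11.3 and 4.1 and at 8.17 and 3.48 FPKM without and with Dox in the shLSD1 and shG9a lines. It was lower than its control in every comparison but that of the combination. AL645608.1 went the opposite way, higher in the shG9a line with Dox and at 1.12 FPKM (73 reads) in vehicle and no read with UNC0642. With 3 reads put in for UNC0642 this was 27.8-fold lower, and the interval began at 22.0.

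Lists of lincRNAs with a known role held few of the 146. Of 31 listed hosts of small nucleolar RNAs, which are cut from introns, 4 were members, and all 4 were lower with UNC0642 by 1.3-fold, where 14.8% of all genes were. Of the 16 listed hosts that reached 5 FPKM, whatever their type, SNHG3, SNHG4, SNHG12, SNHG16, SNHG6 and DANCR were not, with log2 fold changes of 0.06, 0.19, 0.08, -0.16, -0.23 and -0.05. SNHG8 was at 41.6 FPKM in vehicle, 22.5 with SP2509, 17.3 with UNC0642 and 28.8 with both. SNHG15 was at 21.7, 23.3, 13.1 and 13.7 FPKM, SNHG19 at 15.5 FPKM in vehicle and 11.4 with UNC0642, and EPB41L4A-AS1 at 7.48, 12.2, 3.96 and 11 FPKM. With SP2509, by contrast, 2 of the members were lower and 1 higher, where 37.3% and 20.2% of all genes were. In the shG9a line with Dox 3 were lower and SNHG19 higher, where 19.2% and 30.8% of all genes were. SNHG8 was at 76.2 and 36.4 FPKM and SNHG19 at 14.8 and 25 FPKM. Hosts at 5 FPKM that are no members went both ways there. SNHG3, SNHG4 and DANCR were higher (log2 0.92, 1.21 and 0.62), and SNHG1, SNHG17 and GAS5 lower (-0.49, -0.66 and -0.52). In the shLSD1 line EPB41L4A-AS1 was the only member that was lower, at 16.2 and 11.1 FPKM, where 12.2% of all genes were.

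Of 29 listed hosts of microRNAs, 4 were members (MIR22HG, MIR200CHG, MIR210HG and PVT1). Of these, 3 were lower with Dox in the shLSD1 line and 2 were lower and 1 higher in the shG9a line. Of all genes 12.2% were lower in the shLSD1 line, and 19.2% lower and 30.8% higher in the shG9a line. H19, a listed host that reached 5 FPKM but is no member, had log2 fold changes of -0.72 (shLSD1) and -1.02 (shG9a) with Dox. MIR200CHG, host of the epithelial miR-200c, was at 4.2 FPKM in vehicle, 1.12 with SP2509, 1.92 with UNC0642 and 0.677 with both, and at 4.18 and 2.28 FPKM and at 2.76 and 5.94 FPKM with Dox in the shLSD1 and shG9a lines, on 4 to 36 reads. PVT1, which lies beside MYC, was at 26.7, 60.4, 29.7 and 29.2 FPKM in the inhibitor libraries, at 44.9 and 33.4 in the shLSD1 line and at 41.6 and 31.8 in the shG9a line. It was 2.26-fold higher with SP2509 (2.16 to 2.38) and 1.34-fold lower (1.28 to 1.41) with Dox in the shLSD1 line, and just missed the fold of 1.3 on FPKM + 1 in the shG9a line.

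Of 13 listed nuclear-body and other abundant RNAs, NEAT1, MALAT1 and NORAD were members. NEAT1 and NORAD were lower and MALAT1 higher with SP2509, and MALAT1 and NEAT1 were higher in the shG9a line with Dox, NEAT1 only before the shift of the median gene was taken off (log2 0.44 and 0.28). Among 32 noncoding RNAs tied to squamous or other carcinomas, the members LINC01133, LINC01503 and LINC00958 were all higher with SP2509, at 2.65 and 6.68, 23.4 and 32.3, and 7.59 and 12.5 FPKM in vehicle and SP2509, where 20.2% of all genes were higher. Other RNAs of that list that reached 5 FPKM but are no members differed otherwise, with log2 fold changes of -0.95 for TINCR, -1.09 for AFAP1-AS1, -0.67 for LUCAT1 and 0.49 for UCA1. The list of 18 stress and p53 RNAs held the members NORAD, NEAT1 and LINC00885, all 3 lower with SP2509. With SP2509, 37.3% of all genes and 54.1% of the lincRNAs were lower. NORAD and NEAT1 are also on the list of nuclear RNAs above. LINC00885 was at 4.61, 0.737, 1.1 and 0.519 FPKM in the inhibitor libraries and at 1.66 and 5.28 and at 1.79 and 2.37 FPKM in the lines without and with Dox.

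Proteins that hold or degrade such RNAs were also counted. Of 12 paraspeckle proteins, which assemble on NEAT1, 7 were lower and none higher with SP2509, 6 were lower with both inhibitors, and 5 and 7 were higher with Dox in the shLSD1 and shG9a lines. SFPQ was at 77.8, 21.5, 75.8 and 56.1 FPKM in vehicle, SP2509, UNC0642 and both. NEAT1 was lower with SP2509 and with both, as SFPQ was, whereas with UNC0642 NEAT1 was at 40.8 FPKM and SFPQ near its vehicle level. Of 14 nuclear exosome subunits and adaptors 8 were lower with SP2509 and 6 higher in the shG9a line with Dox, and ZFC3H1 was at 10.8 FPKM in vehicle and 1.79 with SP2509. Of 13 factors of nonsense-mediated decay, 7 were lower with SP2509 and 6 higher in the shG9a line with Dox. The background shares are those given above, 37.3% lower with SP2509, 31.5% lower with both inhibitors, and 24.1% and 30.8% higher in the shLSD1 and shG9a lines. The upward shift of the median gene with Dox was not taken off these counts.

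Finally, each lincRNA was compared with the coding gene whose start lies nearest, for the 97 pairs in which that gene reached 5 FPKM. Pearson's r between the changes of the pair was 0.36 with SP2509, 0.34 with UNC0642, 0.26 with both, 0.16 in the shLSD1 line and 0.17 in the shG9a line, given as a description over 97 pairs of genes. For the 63 pairs with starts within 50000 bases it was 0.42, 0.38, 0.18, 0.37 and 0.43, and for the 34 more distant pairs 0.23, 0.29, 0.36, -0.09 and -0.14. With SP2509, 22 of the 51 lower lincRNAs had a lower neighbour and 8 a higher neighbour, and 12 of the 30 higher lincRNAs had a higher neighbour and 10 a lower neighbour. Of all 97 neighbours 38 were lower and 25 higher.

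Single pairs show both cases. MYC was at 137 FPKM in vehicle and 697 with SP2509 and at 219 and 105 and at 206 and 67.2 with Dox in the 2 lines, with changes larger than those of PVT1. FRMD6, which lies 91965 bases from the start of LINC02310, was at 14.6 and 61.9 FPKM with SP2509. SAMD11, 2912 bases from the start of AL645608.1, was at 2.09 and 16.5 FPKM without and with Dox in the shG9a line. WDR81, which overlaps MIR22HG on the opposite strand, was at 3.54, 0.93, 3.93 and 5.76 FPKM in the inhibitor libraries and lay on the same side of vehicle as MIR22HG with SP2509 and with both, but was at 5.36 and 7.76 in the shG9a line, where MIR22HG was at 3.79 and 1.72. POLE4 was at 9.2 FPKM in vehicle and 17.0 with both, where LINC01293 was at 0.958 and 17.3, and was at 18.1 and 19.8 FPKM in the shLSD1 line, where LINC01293 was at 5.52 and 0.857. EPB41L1, 40544 bases from NORAD, was at 23.7 FPKM in vehicle, 15.7 with SP2509 and 5.98 with both, while NORAD was at 157 with both.

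**Figure D5:**
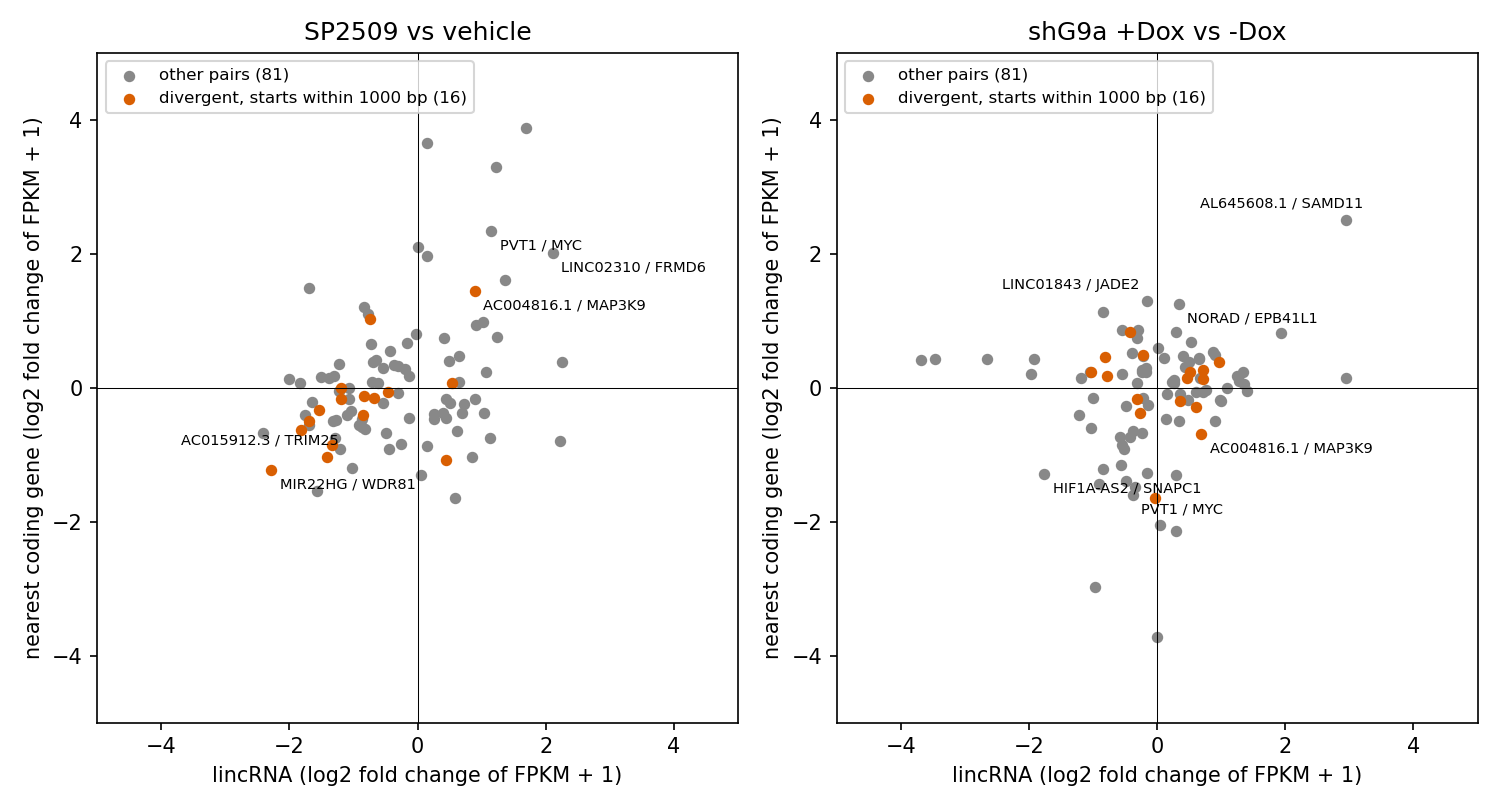
Log2 fold change of FPKM + 1 of each lincRNA (horizontal) and of its nearest coding gene (vertical) with SP2509 (left) and with Dox in the shG9a line (right), for 97 pairs, with 1 library on each side. The 16 pairs called divergent (opposite strands, starts within 1000 bases, overlap not excluded) are in orange. PVT1 with MYC and LINC02310 with FRMD6 lie in the upper right with SP2509, and AL645608.1 with SAMD11 does so in the shG9a line.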

How the data were processed

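Total RNA of the 8 Kyse510 libraries was read from both fragment ends, 150 bases each. Reads of low quality and adapter sequence were discarded by the authors, the remainder was aligned to GRCh38 (Ensembl release 87 is named), and FPKM values were deposited in 2 tables of 31582 and 28942 genes, 1 for each arm. The aligner, the counting tool, the RNA selection and the use of strand are not given in the sources used here. Genes were joined on their identifier. Members, lists and rules were chosen with earlier results of these data known.

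Folds are ratios of FPKM with a pseudocount of 1, which understates the change of low genes. A gene differed where the fold was at least 1.3, with 2 given beside it. Ratios quoted with an interval are of FPKM with no pseudocount. Reads were recovered from the steps of the FPKM values: library totals came from genes with 1 exon, and a gene's reads from the smallest length that gave whole reads. On simulated data 146 of 153 genes came out exactly. That simulation took the library totals as known and used the inhibitor libraries only. It therefore tests neither the totals nor the fit over both arms. With no counts deposited and no replicates, no count model was fitted.

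Named lincRNAs were the 10 with the highest mean FPKM, the 4 largest increases and decreases of each comparison, members of the role lists, and the 4 in each direction with the larger shared changes in a hairpin and its inhibitor. Others were chosen after their values were seen, such as lincRNAs at least 2-fold lower in both lines. Promoter windows were read from GRCh38 (GENCODE release 44 gave exons), and 1 of them is not reported here. Alternatives were a pseudocount of 0.1, a fold of 2, levels of 1 and 10 FPKM, a level reached in the libraries compared, 2 scalings, no coding overlap, at least 50 reads, and the mean of the uninduced lines as control. Python 3.11.15, numpy 2.4.6, pandas 2.3.3, scipy 1.17.1 and matplotlib 3.10.9 were used.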

Additional observations from a re-analysis of the deposited data

Results flagged for a closer look

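In 5 lincRNAs the libraries with Dox lay on opposite sides of their controls in the 2 lines, each past a fold of 1.3 on FPKM + 1. Higher in the shLSD1 line and lower in the shG9a line were 1.37% of the lincRNAs and 1.94% of all genes. The reverse held for 2.05% and 0.807%. The difference between the lines was not tested, since each condition has 1 library. LINC02331 had a log2 fold change of 1.57 in the shLSD1 line and -0.47 in the shG9a line, and AL022316.1 had 0.56 and -0.93. The other 3 were lower in the shLSD1 line and higher in the shG9a line. MIR200CHG had -0.66 and 0.88, AC004816.1 had -0.39 and 0.69, and AC026367.3 had -0.76 and 0.5. Few reads stand behind these values, as MIR200CHG had 14 to 36 reads in these libraries and LINC02331 had 9 to 47. The interval on the reads included 1 for MIR200CHG and AC004816.1 in the shLSD1 line and for LINC02331 in the shG9a line. With the median shift taken off, AC026367.3 was at 0.35 in the shG9a line, under the threshold.

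Another 3 lincRNAs are listed in a single table and so entered no comparison, and reached 5 FPKM at more than 2-fold their control. AC003092.1 was at 0 FPKM in vehicle, 0.845 with SP2509, 1.16 with UNC0642 and 15.9 with SP2509+UNC0642. AC112220.2 was at 1.8, 0.105, 1.78 and 6.56 FPKM in the same order. With Dox CERNA2 was at 7.58 FPKM in the shG9a line, against 2.0 FPKM without, and it was at 3.37 and 4.91 FPKM without and with Dox in the shLSD1 line.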

How the results depend on the processing

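No paired analysis was possible because each condition has 1 library and the labels carry no replicate numbers, and no replicate could be left out. Of the shares of lincRNAs that differed and the shared counts, 103 values under the alternatives stayed within 1.5 times the value given and 19 did not. With a fold of 2, the shares higher and lower were 11.6% and 30.8% with SP2509, 16.4% and 8.9% with UNC0642, 25.3% and 14.4% with both, 8.22% and 6.16% in the shLSD1 line, and 8.9% and 11% in the shG9a line. The shared counts at that fold were 0 higher and 2 lower for LSD1 and 1 higher and 4 lower for G9a. Of all genes 0.177% and 0.199% were so for LSD1 and 0.299% and 0.874% for G9a. With 769 lincRNAs at 1 FPKM or more, the share higher with SP2509 was 14.3%, and the shares lower with Dox were 14.3% (shLSD1) and 15.9% (shG9a). The share higher with SP2509 was 42.9% among the 56 at 10 FPKM or more and 44.3% among the 61 at 5 FPKM or more in vehicle or SP2509. These settings test fewer or other genes by construction.

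Where run, centring, scaling by a trimmed mean, a pseudocount of 0.1, at least 50 reads, no coding overlap and the mean of the uninduced lines kept the shares past a fold of 1.3 within 1.5 times. At a fold of 2, centring moved the share lower in the shLSD1 line from 6.16% to 9.59%. Chosen after seeing the data, 2 more alternatives also kept the shares past a fold of 1.3 within 1.5 times. They were the 153 genes typed lincRNA in at least 1 table and calls whose counting interval leaves out 1. Among the 7 added genes, UCA1 was at 27.1, 38.4, 83.5 and 56.5 FPKM in vehicle, SP2509, UNC0642 and both, and LUCAT1 at 1.39, 0.503, 8.35 and 7.69. The sign of a named log2 fold change past the threshold could not turn under these settings, so nothing is read from it. A pseudocount keeps the sign, and every shift taken off by centring was smaller than the threshold. Beyond the shares and shared counts, 19 values were classed as moved and 99 as the same under centring. With a pseudocount of 0.1 these numbers were 16 and 102. Values on under about 20 reads are limited by depth, and without replicates none can be set against the spread between samples.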
